A study of Mus musculus with 16 samples.

Results

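Some RNAs are made in muscle nuclei and never encode a protein, and 9 of them were followed here through the RNA fractions of mouse gastrocnemius, the large calf muscle: Malat1 and Neat1, which stay in the nucleus, Meg3, Rian, Mirg and H19, which are imprinted, Gas5 and Snhg1, which host small nucleolar RNAs, and Rnu3b1, a gene for the small nucleolar RNA U3. Members were the array probes that carry 1 of these names, and 20 such probes were found for 8 of the 9 genes, among 55681 probe names in all. No probe was named Rian, also not under the 3 synonyms that RefSeq lists for it. The list was selected on measured values, because the differences between polysomal and whole-muscle RNA on these arrays were known when it was drawn up and the U3 probe had the lowest of them. Differences between RNA fractions are therefore given below as a description without a test, and only differences between genotypes were tested.

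RNA came from 3 wild-type mice (WT) and 3 mice heterozygous for an inactivated Eif6 allele (Het, Eif6+/−), male C57BL6 littermates aged 8 to 16 weeks. Eif6 encodes a factor that binds the large ribosomal subunit and acts in its maturation and in translation initiation, and a heterozygous animal carries the inactivated allele in every cell, not in muscle alone. Whole-muscle RNA and RNA pooled from the polysome part of sucrose gradients were measured for all 6 mice, and monosome RNA for WT replicates 1 and 2 and Het replicates 1 and 3, which gave 16 arrays in 6 groups. Levels are log2 signals after quantile normalization, of the 12 whole-muscle and polysome arrays together or, wherever a monosome array is involved, of all 16, and each array probe has its own response, so levels of different probes are not compared.

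Long nuclear RNAs are transcribed like mRNAs but are held back at defined sites. Malat1 gathers in nuclear speckles, which store splicing factors, and Neat1 is the scaffold of paraspeckles. Meg3, Rian and Mirg lie in a row on chromosome 12 in the Dlk1-Dio3 imprinted domain and are expressed from the maternal allele, and Rian and Mirg are best known as precursors of clusters of small nucleolar RNAs and microRNAs. H19, also maternal, neighbours Igf2 and is among the abundant RNAs of fetal and skeletal muscle. Gas5 and Snhg1 carry box C/D small nucleolar RNAs in their introns, and their spliced exons form an RNA with only short reading frames that is exported, bound by ribosomes and removed by nonsense-mediated decay. U3 does not leave the nucleolus for translation at all, but guides early cleavages of the ribosomal RNA precursor. In the RefSeq annotation of GRCm38.p6 the spans of these genes held 8 small nucleolar RNA genes for Gas5, 8 for Snhg1 and 11 for Rian, 10 microRNA genes for Mirg and 3 for Rian, 2 for Meg3 and 1, Mir675, for H19.

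The sequences of 9 probes are shown because the results rest on them and because their place in the transcript decides what they can report. All are 60 bases long, read 5′ to 3′ in the sense of the RNA, and capitals mark the polyadenylation hexamers AATAAA or ATTAAA, or in the U3 probe the box C core TGATGA.
Malat1: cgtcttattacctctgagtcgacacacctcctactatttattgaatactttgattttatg
Neat1: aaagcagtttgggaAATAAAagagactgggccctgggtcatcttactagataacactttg
Meg3: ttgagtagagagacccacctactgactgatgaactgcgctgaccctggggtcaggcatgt
Mirg probe 1: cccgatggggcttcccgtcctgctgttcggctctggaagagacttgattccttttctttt
Mirg probe 2: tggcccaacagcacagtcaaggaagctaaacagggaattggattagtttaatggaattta
H19 probe 1: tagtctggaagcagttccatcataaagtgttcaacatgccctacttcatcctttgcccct
H19 probe 6: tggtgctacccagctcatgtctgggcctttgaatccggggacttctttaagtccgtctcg
Gas5: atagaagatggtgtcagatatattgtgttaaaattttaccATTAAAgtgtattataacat
Rnu3b1: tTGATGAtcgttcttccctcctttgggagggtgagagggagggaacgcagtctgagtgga

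On the mm9 build named in the array annotation, the Malat1 probe lies at chr19:5795713-5795772 and the Neat1 probe at chr19:5842564-5842623, both on the reverse strand. The Meg3 probe at chr12:110809678-110809737 and the Mirg probes at chr12:110968992-110969051 and chr12:110979653-110979712 are on the forward strand. H19 is read from the reverse strand, so its probe at chr7:149761492-149761551 is the one nearest the 3′ end, called probe 1 here, and probe 6 at chr7:149762173-149762232 lies further upstream. The Gas5 probe is at chr1:162968608-162968667 and the U3 probe at chr11:87285025-87285084, both on the forward strand. The array annotation lists 4 U3 genes for that last probe, Rnu3b1, Rnu3b2, Rnu3b3 and Rnu3b4, which cannot be told apart and are called U3 below. Either hexamer was present in 3 of the 20 member probes on the strand of the RNA and in 13.69% of all probes, or 18.64% counting both strands. The box C core was present in 2 member probes, those of U3 and Meg3, and in 2.51% of all probes (4.65% with both strands), and the 4-letter box D motif CTGA in 7 member probes and 29.04% of all probes (48.45% with both strands). Labelling was done with a kit that primes on poly(A) tails, and mature Malat1 and U3 do not carry one.

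Not every member probe gave a usable signal. Of the 20 probes, 13 passed the filter for the 12 whole-muscle and polysome arrays, among 19806 probes that did, and 14 passed it for the 16 arrays, among 20244. They stand for 7 genes, since the only Snhg1 probe failed, and 6 of them are H19 probes, so counts over member probes weigh H19 most. Probes that failed were 1 for Snhg1, 1 for H19, 2 each for Meg3 and Gas5 and, on the 12 arrays alone, the third Mirg probe. The failed Meg3 and Gas5 probes were well above background on 0 to 2 of the 16 arrays and the failed H19 probe on none.

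Arrays of 1 group were not all alike. Array brightness, the 75th percentile of the signal, ran from 12.7 to 150, between 23.5% and 45.9% of probes were well above background, and all 3 Het whole-muscle arrays (13.5 to 33.0) were dimmer than the 3 WT ones (42.3 to 150). WT monosome 2 and WT polysome 2 stood apart in the signal of probes near the 5′ side of a transcript minus that of their 3′ partners. Centred on its mean over all arrays, this difference had a median of 1.63 and 1.16 log2 units there, over 1182 transcripts. The median was −0.41 to 0.05 on the other 14 arrays. Centred values do not show whether 5′ probes exceeded their 3′ partners on any array. For members, values without WT replicate 2 stand beside those that it moved by over 1.5 times. Eif6 itself was lower on every Het array than on every WT array of the same kind with each of its 2 tested probes, with differences of −0.92 and −1.07 log2 units in whole muscle (limma adjusted p = 0.36 for both). Muscle fibre markers were tested in 8 of 8 cases and their summed log2 level stayed between 19.2 and 20.2 in every group.

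**Figure D1:**
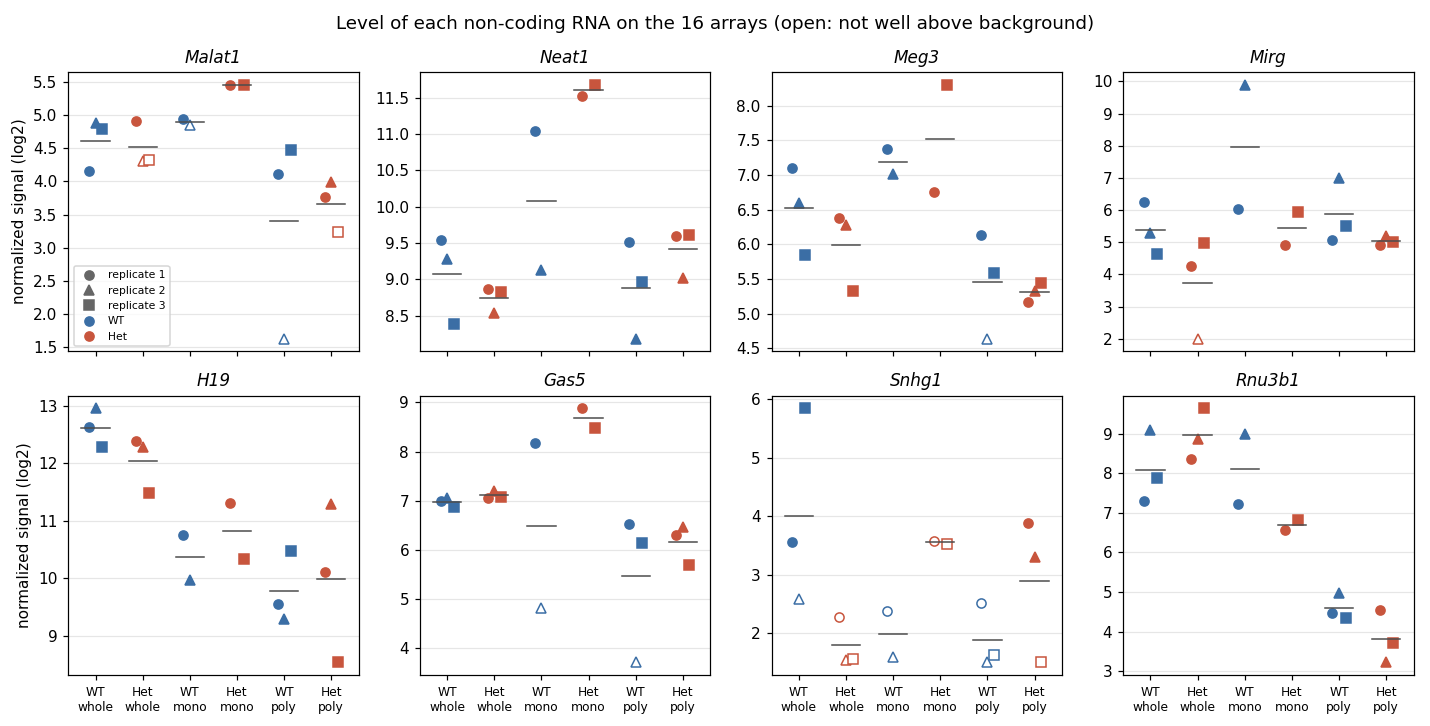
Normalized log2 signal on the scale of all 16 arrays (vertical axis, a different range in each panel) of the probe that stands for each gene on the 16 arrays, by group, with WT in blue, Het in red, a marker shape for each replicate number, open symbols where the spot was not well above background, and a line at the group mean. U3 (Rnu3b1) and H19 have their lowest group means in polysomes, Neat1 and Gas5 their highest in Het monosomes, and Snhg1 is mostly not well above background.

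U3 RNA had the lowest ratio of polysome to whole-muscle signal of any tested probe. Its levels in whole muscle were 7.58, 9.39 and 8.18 in WT and 8.65, 9.17 and 9.93 in Het mice. In polysomes they were 4.68, 5.21 and 4.56 in WT and 4.76, 3.40 and 3.89 in Het mice. Whole-muscle and polysome levels thus did not overlap in either genotype. Within a mouse, polysome minus whole muscle was −2.90, −4.18 and −3.62 log2 units in WT replicates 1 to 3 and −3.89, −5.78 and −6.04 in Het. The mean was −4.40 ± 1.25 (SD, n = 6), rank 1 from the bottom among 19806 tested probes, whose median was 0.10. With normexp background correction, which also added an offset of 50, the mean was −2.66, and with the authors' processed values it was −2.71.

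Monosomes held U3 at levels between those of the other fractions in Het mice, and close to whole muscle in WT mice. Levels were 7.22 and 8.998 on the WT monosome arrays and 6.56 and 6.82 on the Het ones. Monosome minus whole muscle was −0.07 and −0.09 in the WT mice and −1.79 and −2.82 in the Het mice. By group mean on the 16-array scale, the order was Het whole muscle (8.95 ± 0.65), WT monosome (8.11 ± 1.26), WT whole muscle (8.09 ± 0.92), Het monosome (6.69 ± 0.18), WT polysome (4.59 ± 0.33) and Het polysome (3.82 ± 0.67), where ± is the SD. The first 3 of these groups did not differ beyond their spread, and neither did both polysome groups.

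H19 was next in size. Probe 1 measured 12.90, 13.24 and 12.55 in WT and 12.65, 12.55 and 11.76 in Het whole muscle. In polysomes it measured 9.85, 9.59 and 10.77 in WT and 10.40, 11.58 and 8.84 in Het mice. No polysome array reached any whole-muscle array, and the spread was widest among the Het polysomes. Polysome minus whole muscle was −3.05, −3.65 and −1.78 in WT and −2.25, −0.97 and −2.92 in Het mice, a mean of −2.44 ± 0.97 (SD, n = 6). Means of the 6 tested H19 probes ran from −2.35 to −3.47, all below 0 in 6 of 6 mice, and the lowest was that of probe 6 (−3.47 ± 1.68). Probe 6 was at −6.37 in WT replicate 1, whose polysome spot was not well above background, and its mean was −2.885 without that mouse. Polysome spots of probes 4 and 5 in WT replicate 2 were also not well above background. Monosomes were also low in H19, at 10.76 and 9.98 in WT and 11.30 and 10.33 in Het mice for probe 1, which made monosome minus whole muscle −1.77 ± 0.88 (SD, n = 4). Across the 16 arrays the 6 probes were close to each other in pattern, with r between 0.901 and 0.997 over 15 pairs that share the same arrays. The failed probe, which lies upstream of all of them, had r between −0.17 and 0.03 with them.

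**Figure D2:**
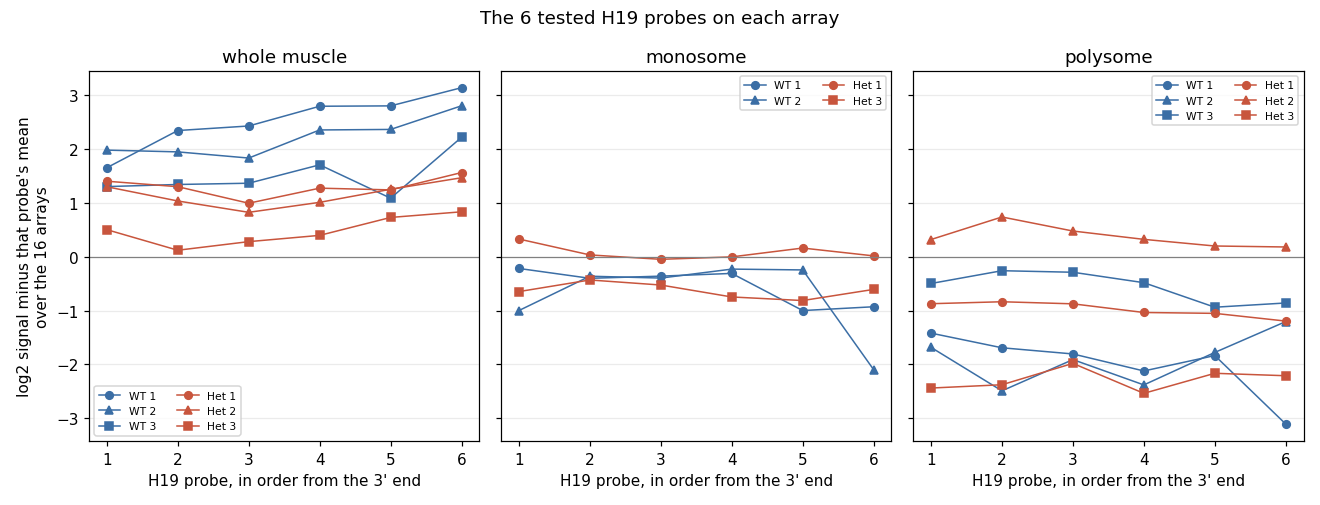
Signal of the 6 tested H19 probes, in order from the 3′ end of the transcript (horizontal axis), as log2 difference from that probe's own mean over the 16 arrays (vertical axis), 1 line per array, with WT in blue, Het in red and a marker shape for each replicate number. All 6 whole-muscle arrays lie above 0 with every probe, and in whole muscle the 3 Het lines lie below the 3 WT lines for probes 2, 3, 4 and 6.

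Gas5 and Malat1 were also lower in polysomes, by smaller amounts that rested in part on WT replicate 2. Gas5 levels in whole muscle were within a narrow band, 7.29, 7.34 and 7.15 in WT and 7.35, 7.50 and 7.36 in Het mice. Its polysome levels were 6.81, 3.91 and 6.42 in WT and 6.58, 6.75 and 5.96 in Het mice, below whole muscle in all 6 mice, and the spot at 3.91 was not well above background. Polysome minus whole muscle had a mean of −1.26 ± 1.104 (SD, n = 6), and −0.84 without WT replicate 2. Malat1 measured 4.37, 5.12 and 5.03 in WT and 5.15, 4.53 and 4.55 in Het whole muscle, and 4.32, 1.67 and 4.70 in WT and 3.97, 4.19 and 3.42 in Het polysomes. The signal was lower in polysomes in all 6 mice, with a mean of −1.08 ± 1.25 (SD, n = 6), or −0.61 without WT replicate 2, whose polysome spot was not well above background. Malat1 was well above background on 11 of 16 arrays. On the 12 arrays it passed the filter through WT whole muscle alone, which favours a lower polysome signal.

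Both RNAs were brighter in monosomes than in the polysomes of the same mouse in all 4 mice measured. Gas5 monosome levels were 8.17 and 4.82 in WT and 8.88 and 8.47 in Het mice, and monosome minus whole muscle was 1.17 and −2.23 in WT and 1.82 and 1.399 in Het mice. The mean was 0.54 ± 1.87 (SD, n = 4), and 1.47 without WT replicate 2, whose monosome array was the only one below its whole-muscle partner, with a spot not well above background. It was 0.33 without WT replicate 1, 0.12 without Het replicate 1 and 0.25 without Het replicate 3. Polysome minus monosome was −2.02 ± 0.79 for Gas5, with 0.49% of tested probes lower. Malat1 monosome levels were 4.95 and 4.86 in WT and 5.46 and 5.47 in Het mice, and its polysome minus monosome value was −1.996 ± 1.004 (SD, n = 4), with 0.53% of tested probes lower. The lowest of the 4 values, −3.23, was that of WT replicate 2, whose polysome and monosome spots were both not well above background. On the 16 arrays Malat1 passed the filter through WT whole muscle and Het monosomes and no polysome group. That also favours a lower polysome signal. Snhg1, measured near the 5′ end of its transcript, was well above background on 4 of 16 arrays. Its levels were 3.75, 2.73 and 6.10 in WT whole muscle and 1.59 to 2.39 in Het whole muscle, where no array was well above background, and no fold is given.

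Neat1 had a higher signal in polysomes than in whole muscle in 4 of 6 mice, and a higher one in monosomes than in whole muscle in 3 of 4. Levels were 9.84, 9.57 and 8.68 in WT and 9.17, 8.84 and 9.12 in Het whole muscle. Polysome levels were 9.81, 8.48 and 9.25 in WT and 9.89, 9.32 and 9.91 in Het mice. Polysome minus whole muscle had a mean of 0.24 ± 0.71 (SD, n = 6), which became 0.51 without WT replicate 2, 0.15 without Het replicate 1 and 0.13 without Het replicate 3. On the monosome arrays Neat1 reached 11.04 and 9.12 in WT and 11.53 and 11.68 in Het mice. Monosome minus whole muscle was 1.498 and −0.16 in WT and 2.66 and 2.86 in Het mice, a mean of 1.72 ± 1.39 (SD, n = 4), higher than 99.5% of the 20244 tested probes, and 2.35 without WT replicate 2. By group mean the order was Het monosome (11.61 ± 0.11), WT monosome (10.08 ± 1.36), Het polysome (9.41 ± 0.34), WT whole muscle (9.07 ± 0.61), WT polysome (8.89 ± 0.67) and Het whole muscle (8.74 ± 0.18). Neighbours among the last 4 groups differed by less than their spread.

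A further 5 probes carry the name in capitals, NEAT1, and lie at chr19:5842534-5842845, around the Neat1 probe, near the 3′ end of the short, polyadenylated form. They fell outside the rule and were found after the values had been seen. Over the 16 arrays they had r between 0.974 and 0.997 with the Neat1 probe, with which some share bases. Mean monosome minus whole muscle ran from 1.37 to 1.75 among them, and polysome minus whole muscle from −0.09 to 0.24. Without WT replicate 2 these ranges were 1.998 to 2.34 and 0.10 to 0.52. Polysome minus whole muscle ran from −0.17 to 0.14 without Het replicate 1, from −0.19 to 0.15 without Het replicate 2 and from −0.20 to 0.15 without Het replicate 3. Monosome minus whole muscle was 0.93 to 1.38 without Het replicate 3.

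Among the imprinted RNAs of chromosome 12, Meg3 was lower in polysomes than in whole muscle in most mice, while the Mirg probes went different ways. Meg3 measured 7.40, 6.88 and 6.12 in WT and 6.66, 6.56 and 5.58 in Het whole muscle, and 6.41, 4.87 and 5.84 in WT and 5.41, 5.57 and 5.69 in Het polysomes, where the WT spot at 4.87 was not well above background. It was lower in polysomes in 5 of 6 mice, with a mean polysome minus whole muscle of −0.90 ± 0.75 (SD, n = 6). Its monosome levels were 7.38 and 7.01 in WT and 6.75 and 8.31 in Het mice, all above the same mouse's whole muscle, by a mean of 1.01 ± 1.32 (SD, n = 4) that was 0.35 without Het replicate 3, and polysome minus monosome was −2.02 ± 0.74. Mirg probe 1 went the other way in polysomes, with 6.54, 5.55 and 4.85 in WT and 4.46, 2.09 and 5.23 in Het whole muscle against 5.31, 7.30 and 5.77 in WT and 5.14, 5.43 and 5.24 in Het polysomes. Its polysome minus whole muscle mean was 0.91 ± 1.55 (SD, n = 6), and 0.43 without Het replicate 2, whose whole-muscle spot was not well above background. Its highest levels, 7.30 and 9.90, were on WT polysome 2 and WT monosome 2. Mirg probe 2 measured 4.75, 4.49 and 4.97 in WT and 5.60, 4.84 and 3.72 in Het whole muscle, and 3.81, 3.08 and 3.46 in WT and 2.06, 2.39 and 2.41 in Het polysomes, a lower signal in all 6 mice. It passed the filter through WT whole muscle alone, which favours that direction, and of the polysome arrays 1 WT array measured it well above background and no Het array did, so no mean ratio is given. Het polysomes were at least 2.53-fold lower than Het whole muscle, where 1 of 3 arrays measured it. Over the 16 arrays the patterns of both Mirg probes had an r of −0.02.

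On the forward strand between the Meg3 and Mirg probes, where Rian lies, the array holds 29 other probes, of which 25 carry the name of an interval rather than a gene. They cannot be assigned to Rian from the annotation. Among them 14 were well above background on no array and 4 were tested, with means of polysome minus whole muscle from 0.04 to 0.12.

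**Figure D3:**
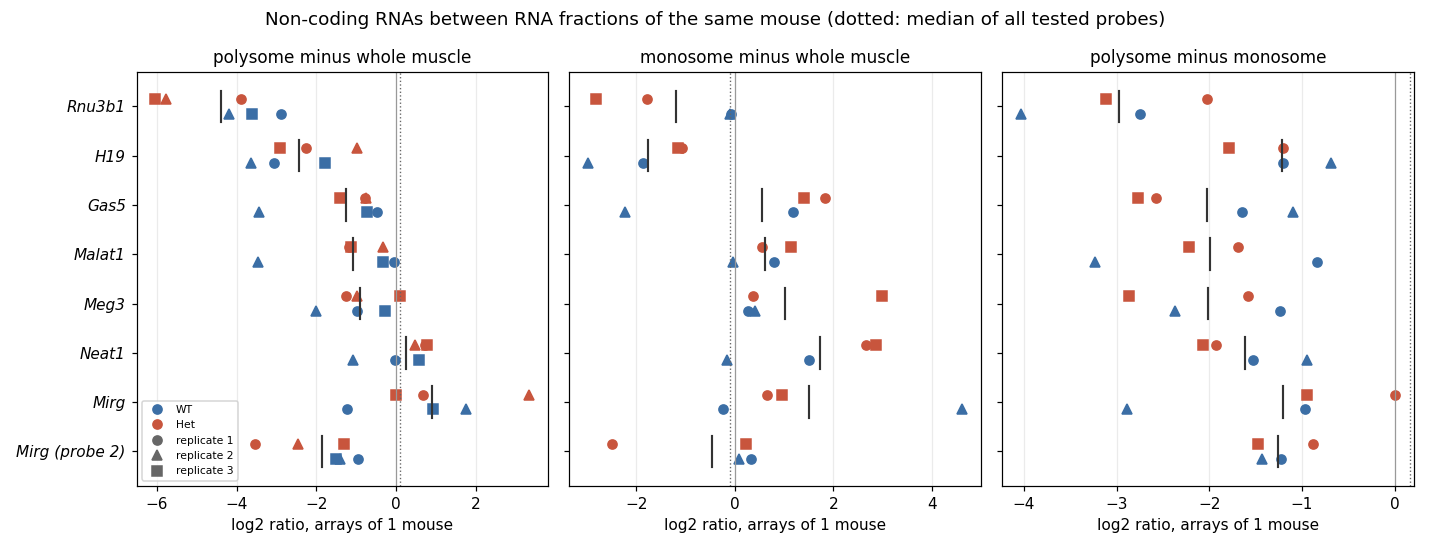
Log2 ratio between RNA fractions of the same mouse (horizontal axis) for the probe that stands for each tested gene and Mirg probe 2, with WT in blue, Het in red, a marker shape for each replicate number, a bar at the mean, a solid line at 0 and a dotted line at the median of all tested probes. U3 lies furthest left in polysome minus whole muscle (mean −4.40), Neat1 and Mirg probe 1 right of 0 in the left panel and in the middle one, and every mean lies left of 0 in polysome minus monosome.

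Counted over the 13 tested member probes, 11 had a mean polysome minus whole muscle below 0, and 10 were below 0 in every mouse, with a median of −2.35. Over all 19806 tested probes these shares were 43% and 12.5%, with a median of 0.10. For monosome minus whole muscle, 8 of 14 means were below 0, with a median of −0.83, against 54.3% and −0.10 over all probes. For polysome minus monosome, all 14 means were below 0, and 12 were below 0 in every mouse, with a median of −1.43, against 43.4%, 15.7% and 0.17 over all probes. These 3 contrasts share arrays, and probes of H19 make up 6 of the 13. Malat1 and Mirg probe 2 are among the 10 and passed the filter through WT whole muscle alone, and of the other 11 probes 9 means were below 0 and 8 probes were below 0 in every mouse. In the contrasts with monosomes, 2 probes passed through a single group, and of the other 12, 7 means were below 0 for monosome minus whole muscle and 12 for polysome minus monosome. The 12 are not free of the filter. Malat1 among them passed through WT whole muscle and Het monosomes and no polysome group, which favours a lower value in polysome minus monosome.

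In whole muscle, genotype moved few of these RNAs past the study's threshold, an absolute log2 difference above 1 with an unadjusted p under 0.05. Of 13 tested member probes, 1 passed it, Mirg probe 1, beside 5.63% of all tested probes, a share near that background. Mirg probe 1 was lower in Het, with a difference of −1.71 ± 0.76 log2 units (SE, limma adjusted p = 0.583), although its groups overlapped. None had an adjusted p under 0.05, beside 0.0101% of all probes, and the unadjusted p was under 0.05 for 1, beside 8.46% of all probes. Groups did not overlap for 5 of 13 probes, beside 13.6% of all tested probes, and 4 of the 5 are H19 probes, which read 1 transcript. The call on Mirg probe 1 was lost once slide entered the fit (−1.58), with normexp (−0.47) and without WT replicate 1 (−1.24), WT replicate 2 (−1.78), Het replicate 1 (−1.95) or Het replicate 2 (−0.80), the last of which had a spot not well above background.

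H19 was lower in Het whole muscle with 6 of 6 probes, with differences from −1.43 to −0.58 log2 units, and no probe passed the threshold. All 6 stayed lower when any single mouse was left out, and 4 of them passed the threshold without WT replicate 3 and 1 without Het replicate 2. Probe 6 measured 9.64, 9.31 and 8.73 in WT and 8.07, 7.98 and 7.34 in Het mice, groups that did not overlap (exact permutation test, two-sided, p = 0.1, the smallest that 3 against 3 allows), and its limma adjusted p was 0.596. Once array brightness entered the fit, probe 1 turned from −0.58 to 0.32 and probe 6 became −0.79. The Het mean was also lower for all 6 tested immune markers, of which Lyz2, C1qa and C1qb passed the threshold, and for 4 of 4 fibroblast markers, of which none did. Endothelial, Schwann cell and blood markers had 1 each that passed downward, with higher Het means for 1 of 4, 1 of 3 and 3 of 5. The immune markers' summed log2 level overlapped between groups (8.88 to 9.41, against 8.98 to 11.7 in WT, Ptprc not tested). The summed level of the 3 tested satellite cell markers was lower on every Het array (7.97 to 8.20 against 8.27 to 8.48, Myf5 not tested), with a lower Het mean for Pax7 and Cdh15 and not for Chrdl2, and the part of any of these in the H19 values was not tested. Fewer cells of a type and less RNA per cell cannot be told apart in whole muscle. U3 was higher in Het by 0.87 ± 0.50 (adjusted p = 0.681). That difference was 0.47 without WT replicate 1 and 0.53 without Het replicate 3, and it passed the threshold at 1.37 without WT replicate 2 and at 1.17 without Het replicate 1. Its sign changed once array brightness entered the fit. Gas5 was 7.40 ± 0.08 in Het and 7.26 ± 0.10 in WT mice (SD, n = 3), without overlap but with a difference of 0.14 (adjusted p = 0.99).

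In polysomes, 1 of 13 tested member probes passed the threshold, beside 5.74% of all tested probes. It was Mirg probe 2, with a Het minus WT difference of −1.16 ± 0.40 log2 units (SE, adjusted p = 0.27), and since no Het array and only 1 WT array measured it well above background, the signal was at least 1.05-fold higher in WT polysomes. None passed at an adjusted p under 0.05, beside 0% of all probes, and 1 had an unadjusted p under 0.05, beside 15.2% of all probes. Het means were higher for 9 of 13 probes, all 6 of H19 among them (0.20 to 0.67). Without WT replicate 2 they were higher for 6 of 13, with Malat1 at −0.66, Gas5 at −0.19 and H19 probe 1 at −0.04. Without Het replicate 2 they were higher for 4 of 13, with 1 of the 6 H19 probes among these. With all mice, groups overlapped for all but Mirg probe 2, while 21.8% of all tested probes had no overlap. That call was lost without WT replicate 1 (−0.94) and with normexp (−0.18). Summed blood markers were lower in Het polysomes (13.3 to 13.8) than in WT polysomes (14.4 to 15.4), and so were summed fibroblast markers (14.3 to 14.9 against 15.1 to 15.4), while muscle fibre markers were slightly higher (19.97 to 20.03 against 19.85 to 19.91). Het means were also lower for 6 of 6 immune and 4 of 4 adipocyte markers, with sums that overlapped, and the part of any of these in the values was not tested.

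**Figure D4:**
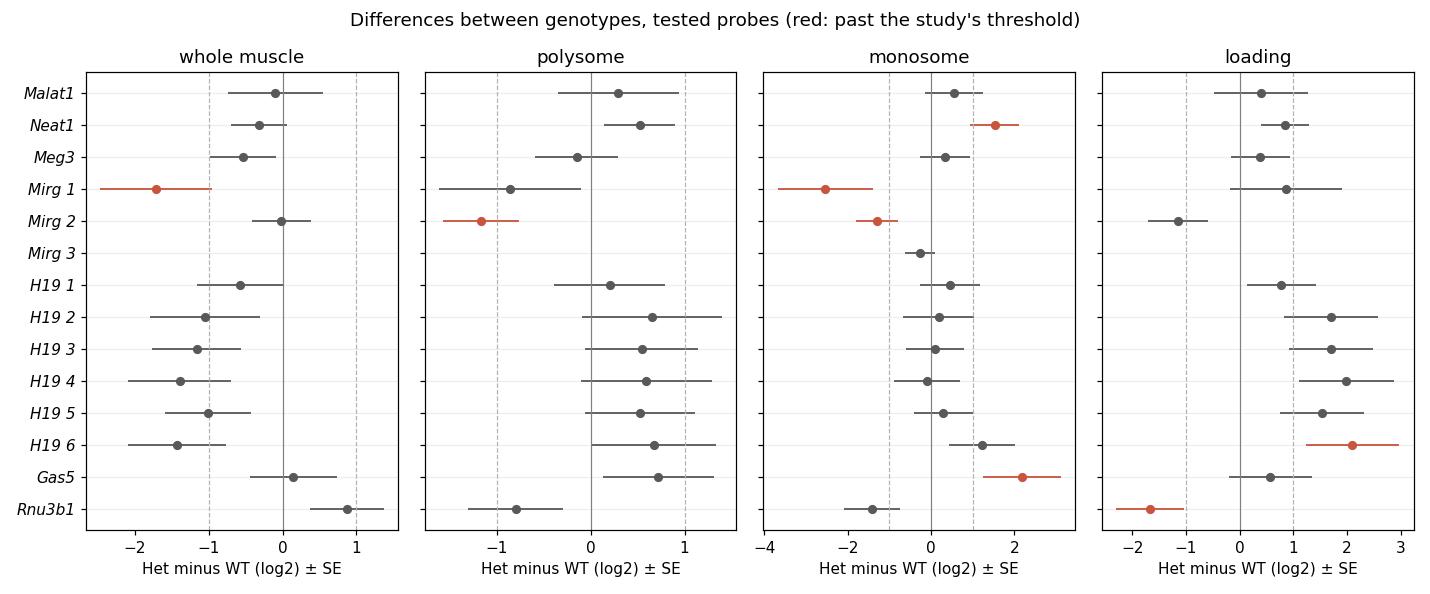
Het minus WT difference (log2, horizontal axis) with its standard error for each tested member probe in whole muscle, polysomes, monosomes and loading, from limma, with probes past the study's threshold in red, dashed lines at −1 and 1, and H19 probes numbered from the 3′ end. Red points number 1 in whole muscle, 1 in polysomes, 4 in monosomes and 2 in loading, and most error bars reach or come close to 0.

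Monosomes gave the largest count, in a comparison in which much of the array moved. Of 14 tested member probes, 4 passed the threshold, which equals the 28.6% of all tested probes that did, so the count is not a result about these RNAs. Neat1 was higher in Het by 1.52 ± 0.59 (SE, n = 2 per group, limma adjusted p = 0.113) and Gas5 by 2.18 ± 0.93 (adjusted p = 0.134). Mirg probe 1 was lower, at −2.54 ± 1.14 (adjusted p = 0.145), and so was Mirg probe 2, at −1.29 ± 0.50 (adjusted p = 0.115), which was not well above background on either Het array and at least 1.48-fold higher in WT. None had an adjusted p under 0.05, beside 0.499% of all probes, and 4 had an unadjusted p under 0.05, beside 33.0% of all probes. An exact permutation test of 2 against 2 cannot go below p = 0.333. Without WT replicate 2 the differences of Neat1, Gas5 and Mirg probe 1 shrank to 0.57, 0.50 and −0.61 and only Mirg probe 2 (−1.57) still passed, and leaving out Het replicate 1 or Het replicate 3, which leaves 1 Het array assumed to vary like the others, left 0 and 1 member probes past the threshold. Without WT replicate 1, which leaves WT monosome 2, an array that stood apart, as the only WT monosome array, the differences grew to 2.48 for Neat1 (limma adjusted p = 0.00193), 3.86 for Gas5 (0.00253) and −4.49 for Mirg probe 1 (0.00542), in a setting in which 53.5% of all tested probes had an adjusted p under 0.05. All 5 NEAT1-named probes also passed with all mice (1.41 to 1.70, smallest adjusted p = 0.0984) and 0 of 5 without WT replicate 2. For U3 the difference in monosomes was −1.42 ± 0.67 (adjusted p = 0.159), with −0.53 without WT replicate 2 and −2.32, past the threshold, without WT replicate 1 (adjusted p = 0.0175). Its groups did not overlap, as was so for 7 of 14 member probes and 50.4% of all tested probes. Summed marker levels also separated the genotypes in monosomes. Het arrays were lower for immune (9.15 to 9.35 against 10.3 to 10.8), adipocyte (10.88 to 10.92 against 11.9 to 12.1), blood (13.9 to 14.1 against 14.2 to 15.7) and fibroblast markers (14.43 to 15.39 against 15.45 to 15.68), although Pdgfra, 1 of the 4 fibroblast markers, had a higher Het mean. Satellite cell markers went both ways, with Het minus WT of −0.62 for Cdh15, 0.38 for Pax7 and 1.45 for Chrdl2, of which Chrdl2 passed the threshold. Endothelial markers had a higher Het mean for 1 of 4 and 1 that passed downward, with sums that overlapped. Het arrays were higher for muscle fibre markers (19.60 to 19.66 against 19.20 to 19.34), and the part of these in the members' values was not tested.

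The arrays were made to ask whether the loss of an Eif6 copy favours the translation of some mRNAs over others. Loading, polysome minus whole muscle within a mouse, was compared between 3 Het and 3 WT mice. The arrays were on 2 slides, and in every mouse the whole-muscle and polysome arrays were on different ones. Polysomes were on slide 1 for WT replicates 1 and 2 and Het replicate 1. They were on slide 2 for WT replicate 3 and Het replicates 2 and 3. Slide and genotype are thus partly confounded in loading and cannot be fully told apart. Of 13 tested member probes, 2 passed the threshold, 1 in each direction, beside 13.9% of all tested probes. U3 had lower loading in Het (−5.23 ± 1.17 against −3.57 ± 0.65, SD, n = 3), a difference of −1.67 ± 0.63 (SE, limma adjusted p = 0.257), and its groups overlapped. H19 probe 6 had higher loading in Het (−2.42 ± 0.97 against −4.52 ± 1.67), a difference of 2.10 ± 0.87 (limma adjusted p = 0.289), and its groups all but touched, at −3.125 in Het replicate 3 and −3.126 in WT replicate 3. The difference was 1.19, not past the threshold, without WT replicate 1, whose dim polysome spot and ratio of −6.37 are given above. All 6 H19 probes had higher mean loading in Het, by 0.78 to 2.10, and for 5 of them the groups overlapped. The range was 0.37 to 2.34 without WT replicate 2, 0.24 to 1.54 without Het replicate 2 and 1.30 to 2.89 without WT replicate 3, when 5 of the 6 passed the threshold. Over all tested probes, 25.3% had groups without overlap. None passed at an adjusted p under 0.05, beside 0% of all probes, and 2 had an unadjusted p under 0.05, beside 16.9% of all probes. Of the markers, 2 of 8 for muscle fibre passed upward in loading (Acta1 and Ckm) while 2 of 5 for blood (Hba-a1 and Alas2) and 1 of 4 for adipocytes (Plin1) passed downward. Het means were higher for 6 of the 8, 1 of the 5 and 0 of the 4. Against the calls, Myh4 and Tnnc2 of muscle fibre were lower in Het and Hbb-b1 of blood was higher. The part of these markers was not tested. Once array brightness entered the fit, H19 probe 6 reversed to −0.67 and U3 became −0.66, neither past the threshold. Slide in the fit also ended both calls (1.66 and −1.32). The call on U3 was lost without WT replicate 1 (−1.32), WT replicate 3 (−1.69), Het replicate 2 (−1.40) or Het replicate 3 (−1.28), and that on H19 probe 6 was lost whichever mouse was left out, WT replicate 3 excepted (1.19 to 2.48 over the 5 mice whose absence ended it).

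Other RNAs of the same classes were read from lists beside the members. Of 16 further snoRNA host genes, 5 were tested, and 4 had a mean polysome minus whole muscle below 0 (median −0.66, lowest Snhg6 with −2.85, below 0 in 6 of 6 mice). Snhg18 was at −0.71 and Snhg3 at −0.66, while Snhg10 was at 0.13. Of 29 small non-coding RNAs, 5 were tested and 3 were below 0 in every mouse: Rmrp, the RNA of the RNase MRP particle, at −2.06, Rnu12, a minor spliceosome RNA, at −1.25, and Rnu1b6, a U1 gene, at −0.64. Terc, the telomerase RNA, was at 0.26, and Rnu2-10, a U2 gene, at 0.57. Among 23 other long non-coding RNAs, 5 were tested, with 2900097C17Rik at −1.96 and Tug1 at 0.88, the latter above 0 in all 6 mice. Imprinted genes, most of them coding for proteins, had 9 of 18 below 0 (median 0.04), from Slc38a4 at −1.34 to Nnat at 1.85. For proteins that act with the members, the median was 0.04 over 10 genes for paraspeckle and speckle proteins, 0.30 over 14 for box C/D and U3 particle proteins and 0.27 over 9 for nonsense-mediated decay factors, beside 0.10 over all tested probes.

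Between genotypes, the 66 tested genes of these lists gave no adjusted p under 0.05 in any comparison with all mice. In monosomes, 3 of 5 tested snoRNA hosts passed the threshold upward, Snhg3 (3.99, adjusted p = 0.072), Snhg6 (2.70, adjusted p = 0.119) and Snhg12 (2.41, adjusted p = 0.147), and Snhg10 passed it downward (−1.25, adjusted p = 0.133), beside the 28.6% given above. In the same comparison 3 of 5 small non-coding RNAs passed downward, Terc (−1.80), Rnu1b6 (−1.49) and Rmrp (−1.40), with adjusted p between 0.113 and 0.149. Without WT replicate 2, which leaves 1 WT array assumed to vary like the others, Snhg3 alone of these 7 genes still passed (2.02), and Snhg6 was at 0.56, Snhg12 at 0.53, Snhg10 at −0.45, Terc at −0.94, Rnu1b6 at −0.43 and Rmrp at −0.98. Without WT replicate 1, when WT monosome 2 is the only WT monosome array, all 7 passed with larger differences and adjusted p between 0.00015 and 0.0444, from 5.87 for Snhg3, 4.86 for Snhg6 and 4.19 for Snhg12 to −2.06 for Snhg10, −2.65 for Terc, −2.56 for Rnu1b6 and −1.79 for Rmrp. In that setting 43 of the 66 list genes had an adjusted p under 0.05, beside 53.5% of all tested probes, and without WT replicate 2 none did.

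The other lists in monosomes moved both ways, again beside 28.6% of all tested probes. Of 18 tested imprinted genes, 3 passed upward (Slc38a4 3.56, Ube3a 2.38 and Airn 1.46) and 3 downward (Ndn −2.23, Mest −1.81 and Grb10 −1.32). Of 14 box C/D and U3 particle proteins, Fbl, the methyltransferase fibrillarin, passed downward (−1.20), as did Bms1 (−2.31). Of 9 nonsense-mediated decay factors, Upf2 (2.77) and Smg6 (1.34) passed upward, and of 10 paraspeckle and speckle proteins Srsf3 passed downward (−1.44). Of 5 other long non-coding RNAs, 2900097C17Rik passed upward (1.93) and Dleu2 downward (−1.40). Without WT replicate 2, only Ndn (−1.39) and Fbl (−1.23) of these 13 genes still passed. In whole muscle 2 list genes passed, Hnrnpk (−1.69) and Rnu2-10 (−1.23), both lower in Het, beside 5.63% of all tested probes, and 1 to 7 did without single mice. In polysomes 3 passed, Upf2 (1.399) and Slc38a4 (1.11) upward and Airn (−1.01) downward, beside 5.74%. Without single mice 0 to 10 list genes did, beside 3.02% to 10.3% of all tested probes. The count was 0 without WT replicate 2 or Het replicate 2, and 10 without Het replicate 3.

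In loading, Snhg10 (−1.69, adjusted p = 0.109) and Terc (−1.48, adjusted p = 0.11) were lower in Het, while of the 18 tested imprinted genes, beside 13.9% of all tested probes, 3 passed upward (Ube3a 1.35, Sgce 1.12 and Gnas 1.02) and 3 downward (Mest −1.52, Airn −1.52 and Ins2 −1.27). Of 5 tested other long non-coding RNAs, Dleu2 passed downward (−1.44, adjusted p = 0.109) and 2900097C17Rik upward (1.15, adjusted p = 0.26), the latter not without WT replicate 1, WT replicate 2 or Het replicate 2 (1.13, 0.91 and 0.76). The call on Gnas was lost without any 1 of 5 mice, WT replicate 2 among them (0.91), and that on Sgce without Het replicate 3 (0.97). Of the protein lists in loading, only Hnrnpk, a paraspeckle protein gene, passed (2.60, adjusted p = 0.112), and 0 of 14 box C/D and U3 particle proteins did so.

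The genes whose pattern over the 16 arrays was most like a member's are given as a description, since all arrays share their fractions and brightness. For Malat1 they were 1110038B12Rik (r = 0.911), Rnf141 (0.908) and Mc3r (0.896). For Gas5 they were an unnamed probe (r = 0.976), Arl2bp (0.973) and Traf3 (0.968), and for Mirg probe 1 Glis1 (0.959), Lrfn1 (0.947) and an unnamed interval (0.94). U3 was closest to an unnamed interval (r = 0.934), Rps4x (0.907) and Btbd6 (0.903), and H19 to an unnamed interval (0.933) and Gm15645 (0.918). For Meg3 they were an unnamed interval (r = 0.885), Eef2 (0.852) and Ppp1r2 (0.849), and for Neat1, after NEAT1 itself, 2 unnamed probes (0.901 and 0.898). Between members, the highest r were 0.789 for Malat1 with Gas5 and 0.742 for Malat1 with Meg3.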

How the data were processed

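The deposited scanner files hold 1-colour Agilent spot intensities made by the authors with Feature Extraction 11.0.1.1, already background-corrected, and a deposited table has the authors' processed log2 values, used as an alternative. Processed signals were averaged per probe, log2-transformed, quantile-normalized and fitted with limma 3.58.1 in R 4.3.3 (data.table, version 1.17.8, and figures with matplotlib 3.10.9), as the methods name log2, quantile normalization and the threshold. The filter kept a probe if all arrays of some group had it well above background. Loading was fitted on 6 differences within mice. p-values were adjusted by Benjamini-Hochberg over all tested probes. Members and lists were chosen with earlier results of these data known. The probe with the highest mean signal stands for its gene, and the 3 most correlated genes are named. The design text ties whole-muscle and polysome arrays to 1 mouse. Their deviations from their group means had r of 0.058 to 0.485 within a mouse. WT and Het mice that share only a number had r of −0.329 to 0.456, a range that overlaps it. The whole-muscle, polysome and loading fits were tested on simulated data. The number of arrays limits precision. No spot was saturated (0 on each array). Most alternatives changed 1 choice. Normexp also added an offset of 50, and the authors' values were not normalized again. Loading fits with slide as a term or within a slide also left out the pairing within a mouse.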

Additional observations from a re-analysis of the deposited data

Results flagged for a closer look

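These results were singled out because they passed the study's threshold on unadjusted p, or separated the genotypes, in a contrast between RNA fractions. In loading, H19 probe 6 differed by 2.10 log2 units and U3 (Rnu3b1) by −1.67, with limma adjusted p of 0.289 and 0.257. These are 2 of 13 member probes, beside 13.9% of all tested probes, so the count is near the background. Slide in the fit ended both calls (1.66 and −1.32), and so did array brightness, with which H19 probe 6 reversed to −0.67 and U3 was at −0.66. The WT replicate 1 polysome spot of H19 probe 6 was not well above background, and the difference was 1.19 without that mouse.

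The 4 tested probes between Meg3 and Mirg were chosen by their position, after values had been seen, and their differences in loading are larger relative to the spread than those of any member. At chr12:110844484-110844543 the 3 WT mice had 1.05, 0.11 and 1.49 and the Het mice −0.86, −0.56 and −0.57 (Het minus WT −1.54). At chr12:110845631-110845690 the WT mice had 1.07, 0.92 and 0.49 and the Het mice −0.58, −1.04 and −0.62 (−1.58). At chr12:110865304-110865363 the WT mice had 0.54, 1.003 and 0.65 and the Het mice −0.49, −0.96 and −0.001 (−1.21). At chr12:110968473-110968532 the WT mice had 0.86, 0.78 and 0.82 and the Het mice −0.57, −0.69 and −0.78 (−1.50). Every WT mouse was above 0 and every Het mouse below it with each probe, which is p = 0.1 by an exact two-sided permutation test, the smallest possible, and the limma adjusted p was 0.138, 0.109, 0.162 and 0.109. All 4 passed the threshold that 13.9% of all tested probes passed, and all kept their direction with slide or array brightness in the fit, within slide 2 and without WT replicate 2. The threshold was no longer passed by 3 of the 4 with slide in the fit, by 2 with array brightness, by 4 within either slide, and by 1 each with normexp, with the authors' table and without Het replicate 2 (−0.97, at chr12:110865304-110865363). Their pattern over the 16 arrays had r between 0.183 and 0.276 with Meg3. All 4 had their highest level on WT monosome 2. Their correlation with each other was not computed, and since they share arrays they do not count as 4 separate results.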

How the results depend on the processing

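Counts of members past the threshold were unstable. For loading (2) they were 5 with 75th percentile scaling, 4 with normexp, 6 with the authors' table, 1 with slide in the fit, 1 within slide 1, 1 within slide 2, 0 with brightness in the fit, 0 by the methods' t-test and 0 to 6 without single mice. No mouse had both arrays on 1 slide, so the loading fits within a slide compared polysomes and whole muscle of different mice. That with slide in the fit also left out the pairing. For monosomes (4) they were 0 within slide 1, 2 with brightness as a term, 2 among probes above background on all arrays, 0 by the methods' t-test and 0 to 5 without single mice. For polysomes (1) they were 0 with normexp, 0 with the authors' table, 0 within slide 1, 0 among probes above background on all arrays and 0 to 2 without single mice. For whole muscle (1) they were 3 with normexp, 3 with the authors' table, 3 without a filter, 3 by the methods' t-test, 0 with slide or with brightness in the fit, 0 within slide 1, 0 among probes above background on all arrays and 0 to 5 without single mice. Counts at an adjusted p under 0.05 were 0 in every setting run but for monosomes, with 3 within slide 2 and 0 to 4 without single mice, 4 being without WT replicate 1. Both of these counts rest on an arm of 1 monosome array, assumed to vary like the other groups. The median of polysome minus whole muscle was −1.03 without a filter and −2.72 to −1.96 without single mice, that of monosome minus whole muscle 0.13 without a filter, −1.72 among probes above background on all arrays and −1.04 to 0.12 without single mice.

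WT and Het mice of a number share only that number (r −0.329 to 0.456 over 6 pairs). With it as a replicate block the counts were 0 for whole muscle, 1 for polysomes and 2 for monosomes, and without the pairing within a mouse the loading count was 1 (no replicate block).

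Differences of members that changed sign were all below the threshold in the fit reported, except H19 probe 6 in loading. In whole muscle Malat1 became 0.057 with slide in the fit, 0.40 within slide 2 and 0.99 with brightness (−0.33 to 0.043 without single mice), Neat1 0.30 within slide 1 and 0.44 with brightness, Meg3 0.46, H19 probe 1 0.32 and U3 (Rnu3b1) −0.13 with brightness. Mirg probe 2 in whole muscle became 0.087 with 75th percentile scaling, 0.12 with normexp, 0.01 with the authors' table, 0.094 with slide in the fit, 0.98 within slide 2 and 0.43 with brightness (−0.45 to 0.49 without single mice). In polysomes Malat1 became −0.043 with 75th percentile scaling, −0.026 with normexp, −0.023 with the authors' table, −0.90 within slide 2 and −0.21 with brightness (−0.66 to 0.85 without single mice). Within slide 2, H19 probe 1 became −0.56 (−0.21 with brightness, −0.45 to 0.92 without single mice), H19 probe 6 −0.16 (−0.043 to 1.27) and Gas5 −0.063 (−0.19 to 1.26), and Meg3 ran from −0.57 to 0.20 without single mice. In monosomes Meg3 became −0.63 within slide 1 (−0.45 to 1.11 without single mice), and H19 probe 1 ran from −0.040 to 0.94. In loading Malat1 became −0.020 with 75th percentile scaling, −0.019 with the authors' table, −1.30 within slide 2 and −1.04 with brightness (−0.70 to 0.95 without single mice), Meg3 −0.18 within slide 1 and −0.50 with brightness (−0.076 to 0.79), and Gas5 −0.10 within slide 2 and −0.31 with brightness (−0.37 to 1.099). H19 probe 1 in loading became −0.14 within slide 2 and −1.31 with brightness, H19 probe 6 −0.67 with brightness, and Mirg probe 1 −1.57 with brightness (−0.13 to 1.55 without single mice). The causes were not tested. Of 656 differences over the alternatives, interval probes included, 499 kept their direction and side of the threshold and 54 changed sign. Of the others, 84 kept their direction but lost the call, and 19 gained one. The count of NEAT1-named probes past the threshold in monosomes (5), examined after seeing the data like the interval probes, was 0 within slide 1 and by the methods' t-test. Dim spots limit Snhg1, Mirg probe 2, the third Mirg probe and Malat1, which were well above background on 4, 6, 10 and 11 of the 16 arrays.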
